A study of Homo sapiens with 15 samples.

Results

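The metallothionein family was described here through 8 genes, MT1B, MT1E, MT1F, MT1G, MT1H, MT1M, MT1X and MT2A, selected by their gene symbol in the platform annotation. Each gene had 1 probe set, so 8 of the 14841 named probe sets, which cover 14361 genes, belong to them. The cells were ZR-75-1, an established human breast cancer line grown in RPMI-1640 medium with 10% FBS. For 6 h they received 10 nM of MPA (medroxyprogesterone acetate, a synthetic progestin), PROG (progesterone), DHT (dihydrotestosterone, an androgen) or DEX (dexamethasone, a synthetic glucocorticoid), or 0.1% ethanol as vehicle, in arrays that the sample titles also call untreated. The full compound names are the usual reading of the abbreviations. Each of the 5 groups had 3 Affymetrix arrays, 15 in all, and the number of arrays limits the precision of every value.

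Metallothioneins are small proteins rich in cysteine that bind zinc and copper, and cadmium on exposure, through their thiol groups. Their genes lie side by side in a cluster and are switched on by metals through MTF1, a zinc-sensing transcription factor that binds metal response elements before the gene starts. MT2A is also a textbook glucocorticoid-induced gene, and the receptors for glucocorticoids, progestins and androgens recognise a common DNA element. MT3 and MT4, further members of the cluster, are known mainly from brain and from stratified epithelium.

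The sequence that precedes the gene start was at hand in the RefSeq promoter table (build GRCh38.p14) for 4 of the 8 genes, MT2A, MT1X, MT1H and MT1B. Shown here are the 250 bases before the start of the members whose levels differed most among compounds, MT2A and MT1X, and of MT1H, which had more metal response element cores but a probe set near the array medians. Each is written 5′ to 3′, with matches to the metal response element core (TGCACNC or TGCGCNC, on either strand) in capitals.
MT2A, chr16:56608334-56608583, plus strand: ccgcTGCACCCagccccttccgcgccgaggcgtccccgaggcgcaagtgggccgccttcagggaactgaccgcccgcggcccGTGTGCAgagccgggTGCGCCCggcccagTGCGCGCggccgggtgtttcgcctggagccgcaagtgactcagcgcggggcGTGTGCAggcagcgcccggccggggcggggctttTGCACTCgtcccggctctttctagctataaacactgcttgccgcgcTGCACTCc
MT1X, chr16:56682220-56682469, plus strand: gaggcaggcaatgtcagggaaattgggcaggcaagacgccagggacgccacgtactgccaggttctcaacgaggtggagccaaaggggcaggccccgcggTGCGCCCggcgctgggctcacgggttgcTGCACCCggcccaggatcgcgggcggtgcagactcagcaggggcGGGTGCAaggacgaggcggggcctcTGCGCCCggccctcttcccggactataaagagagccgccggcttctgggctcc
MT1H, chr16:56669564-56669813, plus strand: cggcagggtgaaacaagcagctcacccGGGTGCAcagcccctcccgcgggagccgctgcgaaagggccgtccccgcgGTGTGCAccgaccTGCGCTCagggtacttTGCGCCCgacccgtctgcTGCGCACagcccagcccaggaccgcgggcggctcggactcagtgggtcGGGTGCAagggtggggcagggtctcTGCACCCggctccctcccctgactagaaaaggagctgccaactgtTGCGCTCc
The core was found 7 times in MT2A, 4 times in MT1X, 8 times in MT1H and 3 times in MT1B. Of 35116 promoter windows of this length in the table, 24.8% held at least 1 such core, 1.58% at least 3 and 0.37% at least 4. These windows were not matched for base composition, and the share of G and C in the 4 stretches was 62.4% (MT1B) to 73.2% (MT2A). In MT1X, MT1H and MT1B a core began 53 bases before the start, and in MT2A 54 bases before it. The steroid receptor element core ACANNNTGT, which reads the same on both strands, was in none of the 4 stretches and in 4.61% of all windows. The antioxidant response element core TGACNNNGC, sought on either strand, was found 1 time each in MT2A, MT1X and MT1B, not in MT1H, and in 10.9% of all windows. No match of one motif overlapped a match of another in these stretches. A match is a string of letters and was not tested for binding, and the absence of one says only that these letters are not in this window. Elements further from the start, or cut by the edge of the 250 bases, were not sought, for MT2A as for the others.

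**Figure D1:**
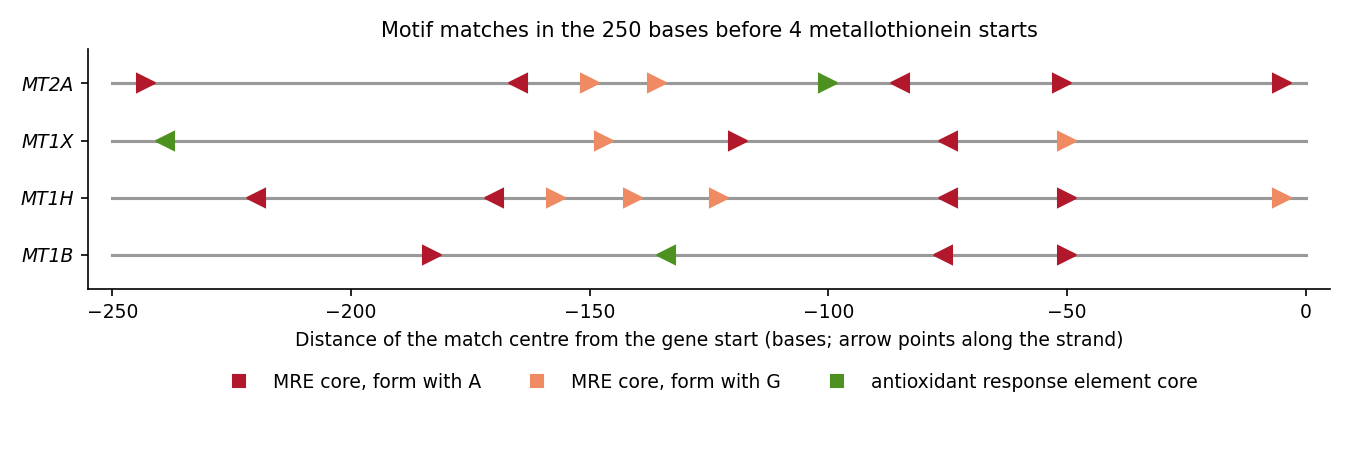
Motif matches in the 250 bases before the start of MT2A, MT1X, MT1H and MT1B. The horizontal axis gives the distance of each match centre from the gene start in bases, arrows point along the strand of the match and colours mark the motif; MT2A has 7 metal response element cores, MT1X 4, MT1H 8 and MT1B 3.

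Values are log2 expression, differences are first group minus second on that log2 scale ± the standard error of limma's fit over all 15 arrays (n = 3 arrays in each group). The word called is used of an adjusted p below 0.05 in that fit. The labels do not state whether a group's arrays derive from different cultures, and the p-values reflect the spread among these arrays alone, which may be technical. Array medians ran from 3.69 to 3.73 and arrays of 1 group correlated at r = 0.997 to 0.998 over all probe sets. The luminal markers fixed for the line (9 genes, 10 probe sets, KRT18 the highest) had means of 5.87 to 12.1, while the 3 basal and 2 fibroblast markers measured had means of 4.06 or less. Of the blood and endothelial markers VWF had a mean of 3.16 and CD68, which is not confined to macrophages, one of 7.71. The metallothionein genes are related in sequence to each other. Since the probe sequences were not used here, signal of 1 gene may be read in part by the probe set of another. Since RNA is measured in bulk, fewer cells that express a gene and less of its RNA per cell cannot be told apart. The labels give ethanol for the vehicle arrays only and no solvent for the compounds, so a solvent effect cannot be told apart from a compound effect against vehicle.

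Among the 8 genes 3 were read well above the array medians, MT2A, MT1F and MT1X, and these were the members that the limma F test over the 4 comparisons with vehicle called (adjusted p = 4.20e-07, 0.0186 and 7.81e-04). Over all named probe sets that test called 5.13%. The other 5, MT1B, MT1E, MT1G, MT1H and MT1M, lay near or under the array medians in every group, with F test adjusted p between 0.172 and 0.881. Leaving out vehicle 1 or vehicle 3 took the number of members called by the F test to 2, and leaving out MPA 1 took it to 4.

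MT2A, the major metallothionein of many human tissues (probe set 16819207), was highest with MPA and next highest with PROG. Its vehicle arrays read 9.04, 9.10 and 9.17. With MPA the arrays read 9.84, 9.81 and 9.77, and with PROG 9.70, 9.65 and 9.61. All 6 progestin arrays therefore lay above all vehicle arrays, and every MPA array above every PROG array. DEX gave 9.41, 9.37 and 9.43, between the vehicle and PROG arrays without overlap with either. DHT gave 9.25, 9.16 and 9.16, which overlapped vehicle.

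Against vehicle MT2A rose 1.63-fold with MPA (0.70 ± 0.046, adjusted p = 1.32e-07), 1.46-fold with PROG (0.55 ± 0.046, adjusted p = 3.57e-06) and 1.23-fold with DEX (0.30 ± 0.046, adjusted p = 0.00394). The difference with DHT was 0.09 ± 0.046 (95% interval -0.01 to 0.19, adjusted p = 0.583). By size, these were the 108th largest rise among 14841 probe sets with MPA, the 100th with PROG and the 162nd with DEX. A fit on the DEX and vehicle arrays alone gave an adjusted p of 0.0824 for the same difference. With each of the 15 arrays left out in turn, the MPA, PROG and DEX calls held (adjusted p up to 2.10e-06, 4.37e-05 and 0.0275).

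Between compounds MT2A was higher with MPA than with DHT (0.62 ± 0.046, adjusted p = 1.41e-06) and than with DEX (0.40 ± 0.046, adjusted p = 8.94e-05). It was also higher with PROG than with DHT (0.46 ± 0.046, adjusted p = 5.16e-05) and than with DEX (0.25 ± 0.046, adjusted p = 0.0105). The last of these calls ended without PROG 1 (adjusted p = 0.0667) or DEX 2 (adjusted p = 0.0577), and in a fit on those groups alone (adjusted p = 0.0681). DHT against DEX missed the threshold at -0.21 ± 0.046 (adjusted p = 0.0554) and passed it without vehicle 3 (adjusted p = 0.0479), with dim probe sets left out (adjusted p = 0.0296) and with an intensity trend (adjusted p = 0.0103). MPA differs from PROG by a methyl and an acetoxy substituent on the progesterone skeleton, and at the matched dose and time the MT2A level with MPA exceeded that with PROG by 0.15 ± 0.046 (95% interval 0.05 to 0.25), which was not called (adjusted p = 0.288). In the order of levels MPA, PROG, DEX, DHT and vehicle, only the step from PROG to DEX was called.

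MT1F, an MT1 isoform gene (probe set 16819252), stood at 9.83, 9.96 and 9.92 in the vehicle arrays. The MPA arrays read 10.17, 10.21 and 10.33 and the PROG arrays 10.12, 10.15 and 10.15, in both groups above all vehicle arrays. DHT read 10.15, 9.99 and 10.06 and DEX 10.06, 10.13 and 10.00. Those arrays too were above every vehicle array, though by less. The difference from vehicle was 0.33 ± 0.056 with MPA (1.26-fold, adjusted p = 0.00165), 0.24 ± 0.056 with PROG (adjusted p = 0.0374), 0.16 ± 0.056 with DHT (95% interval 0.04 to 0.28, adjusted p = 0.297) and 0.16 ± 0.056 with DEX (95% interval 0.04 to 0.28, adjusted p = 0.299).

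The MT1F call with MPA held with each array left out (adjusted p up to 0.0116). The call with PROG ended without any 1 of vehicle 1, vehicle 2, vehicle 3, PROG 1, PROG 2, PROG 3, DHT 3 and DEX 1, with adjusted p from 0.0520 to 0.151, and in a fit on the PROG and vehicle arrays alone (adjusted p = 0.0732), with all probe sets (0.0645) and with quantile normalization (0.0655). No comparison of MT1F between compounds was called. The differences ran from 0.003 ± 0.056 for DHT minus DEX (95% interval -0.12 to 0.12, adjusted p = 0.992) to 0.17 ± 0.056 for MPA minus DEX (95% interval 0.05 to 0.29, adjusted p = 0.125). In the order of levels MPA, PROG, DHT, DEX and vehicle, no step between neighbours was called.

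MT1X, another MT1 isoform gene (probe set 16819264), was lowest with DHT. Its DHT arrays read 9.59, 9.60 and 9.65, below all 12 other arrays. The vehicle arrays read 9.78, 10.00 and 9.80, of which only vehicle 2 stood in the range of the MPA and PROG arrays, and all lay below the DEX arrays. MPA gave 9.99, 10.13 and 9.98, PROG 10.01, 9.99 and 10.00, and DEX 10.04, 10.03 and 10.12, so these 3 compounds lay close together.

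MT1X was lower with DHT than with DEX, at 0.732 of the DEX level (-0.45 ± 0.059, adjusted p = 0.00138), which is the 25th largest fall among all probe sets in that comparison. It was higher with MPA than with DHT (0.42 ± 0.059, adjusted p = 5.49e-04) and with PROG than with DHT (0.39 ± 0.059, adjusted p = 0.00219). All 3 calls held with each array left out in turn, with adjusted p up to 0.0106, 0.00421 and 0.0147. Against vehicle no difference of MT1X was called. The values were -0.25 ± 0.059 with DHT (95% interval -0.37 to -0.12, adjusted p = 0.0733), 0.17 ± 0.059 with MPA (adjusted p = 0.120), 0.14 ± 0.059 with PROG (adjusted p = 0.348) and 0.20 ± 0.059 with DEX (adjusted p = 0.170). Without vehicle 2 the MPA difference became 0.24 (adjusted p = 0.0153) and the DEX difference 0.27 (adjusted p = 0.0332), both then called, and the DHT difference -0.18. The DHT difference passed the threshold with dim probe sets left out (adjusted p = 0.0447) and with an intensity trend (adjusted p = 0.0197). MPA and DEX differed by -0.03 ± 0.059 (95% interval -0.16 to 0.10) and PROG and DEX by -0.06 ± 0.059 (95% interval -0.19 to 0.06). In the order DEX, MPA, PROG, vehicle and DHT no step between neighbours was called.

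**Figure D2:**
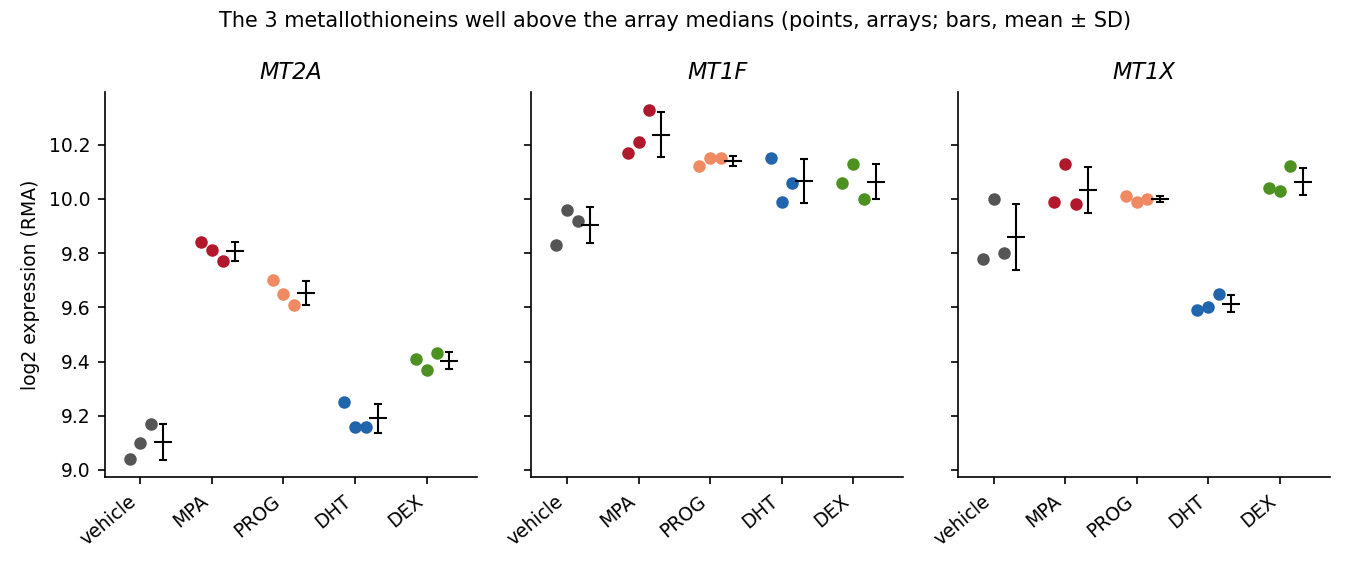
Log2 expression of MT2A, MT1F and MT1X on each of the 15 arrays by group. Points are arrays and black bars the mean ± SD of 3 arrays; the MPA arrays of MT2A sit at 9.77 to 9.84 above all others, and the DHT arrays of MT1X at 9.59 to 9.65 below all others.

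**Figure D3:**
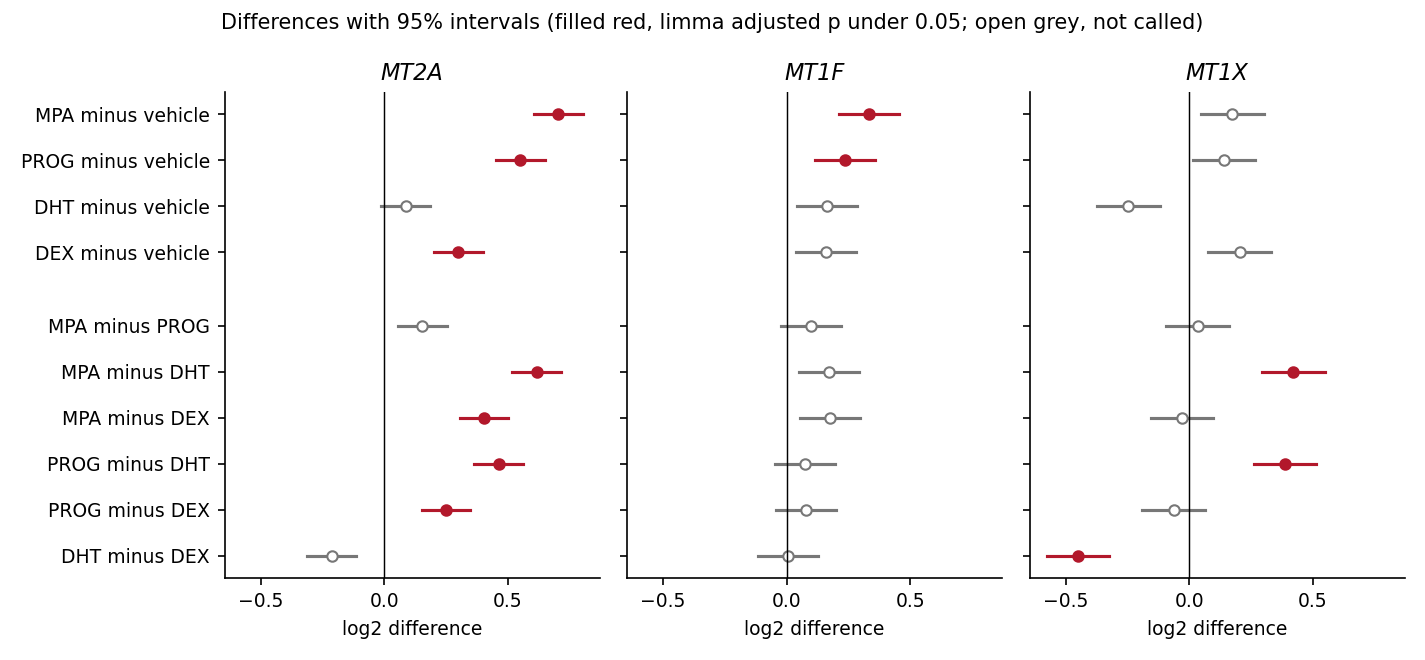
Log2 differences of MT2A, MT1F and MT1X in the 4 comparisons with vehicle and the 6 between compounds. Points are limma estimates and lines their 95% intervals, filled red where called; MT2A is called in 7 of 10 comparisons, MT1F in 2 and MT1X in 3, each of which sets DHT against another compound.

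The 3 genes did not rank the compounds alike. The fitted MT2A difference from vehicle was 0.70 with MPA and 0.30 with DEX, whereas for MT1X it was 0.17 and 0.20. With DHT the difference was 0.09 for MT2A, 0.16 for MT1F and -0.25 for MT1X. These values share the vehicle arrays, and the difference between genes was not tested. Across the 15 arrays the levels of MT2A and MT1F correlated at r = 0.815, of MT2A and MT1X at 0.636 and of MT1F and MT1X at 0.328, as a description of points that share 5 groups.

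The members were chosen with earlier results of these data known. Counts set beside shares of all probe sets, here and between compounds, are therefore no test of the family. Counted over the family, 2 of 8 members were called with MPA, MT2A and MT1F, both higher, against 5.93% of all named probe sets. The members' median difference was 0.14 and that over all probe sets -0.003. With PROG the same 2 genes were called higher, against 2.82% of all, with a median of 0.08 beside 0 over all. That count fell to 1 without each of the 8 arrays named for MT1F. DEX gave 1 call, MT2A, against 1.11% of all, with a median of 0.17 beside 0.01. The count became 2 without vehicle 2, through MT1X, and 0 in a fit on the DEX and vehicle arrays alone. With DHT limma called 0 of 8 against 0.889% of all, with a median of -0.05 beside -0.003. At an unadjusted p under 0.05 limma had 4 members with MPA, 3 with PROG, 2 with DHT (MT1F and MT1X) and 4 with DEX. The share of all probe sets at that unadjusted threshold is not given here.

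Between compounds the counts were 2 of 8 for MPA minus DHT (MT2A and MT1X, both higher with MPA), where 3.51% of all probe sets were called, and 2 of 8 for PROG minus DHT (the same genes, higher with PROG), where 1.71% were. MPA minus DEX had 1 call, MT2A, against 4.06% of all, and PROG minus DEX 1, MT2A, against 1.42%, which became 0 without PROG 1 or DEX 2. DHT minus DEX had 1, MT1X, lower with DHT, against 0.654%, and 2 without vehicle 3, with MT2A as the other. For MPA minus PROG limma called 0 of 8 members against 0.29% of all probe sets, with MT1E and MT2A the 2 at an unadjusted p under 0.05. Between compounds such unadjusted counts ran from 1 (PROG minus DEX) to 4 (MPA minus DHT), again with no share of all probe sets given.

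The other 5 members were read at a level where a difference is hard to see. MT1B ranged from 2.92 to 3.42 (median 3.25) and MT1G from 2.89 to 3.41 (median 3.09) over the 15 arrays, below the own median of every array. MT1H ranged from 3.53 to 3.96 (median 3.66) and MT1M from 3.62 to 4.04 (median 3.77), around the array medians. Vehicle means were 3.20 ± 0.18 for MT1B, 3.10 ± 0.050 for MT1G, 3.62 ± 0.096 for MT1H and 3.73 ± 0.074 for MT1M (SD, n = 3). None of these 4 genes was called in any comparison, and at this signal that does not show equal levels.

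MT1E, a further MT1 isoform gene, had vehicle arrays at 3.23, 3.16 and 3.23. Its MPA arrays read 3.28, 3.59 and 3.75, the PROG arrays 3.44, 3.27 and 3.11, the DHT arrays 3.10, 3.18 and 3.15 and the DEX arrays 3.61, 3.30 and 3.37. All MPA and DEX arrays were above the vehicle arrays, and 1 of the 15 arrays, MPA 3, exceeded its own array median. The differences were 0.33 with MPA (adjusted p = 0.106) and 0.22 with DEX (adjusted p = 0.521), and 0.40 for MPA minus DHT (adjusted p = 0.0703). Without MPA 1, the lowest MPA array, MPA minus vehicle became 0.46 (adjusted p = 0.0127) and MPA minus DHT 0.53 (adjusted p = 0.00856). No other fit with 1 array left out called either difference. Over those fits MPA minus vehicle went down to 0.23 and its adjusted p up to 0.339. MPA minus DHT went down to 0.29 and its adjusted p up to 0.238.

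**Figure D4:**
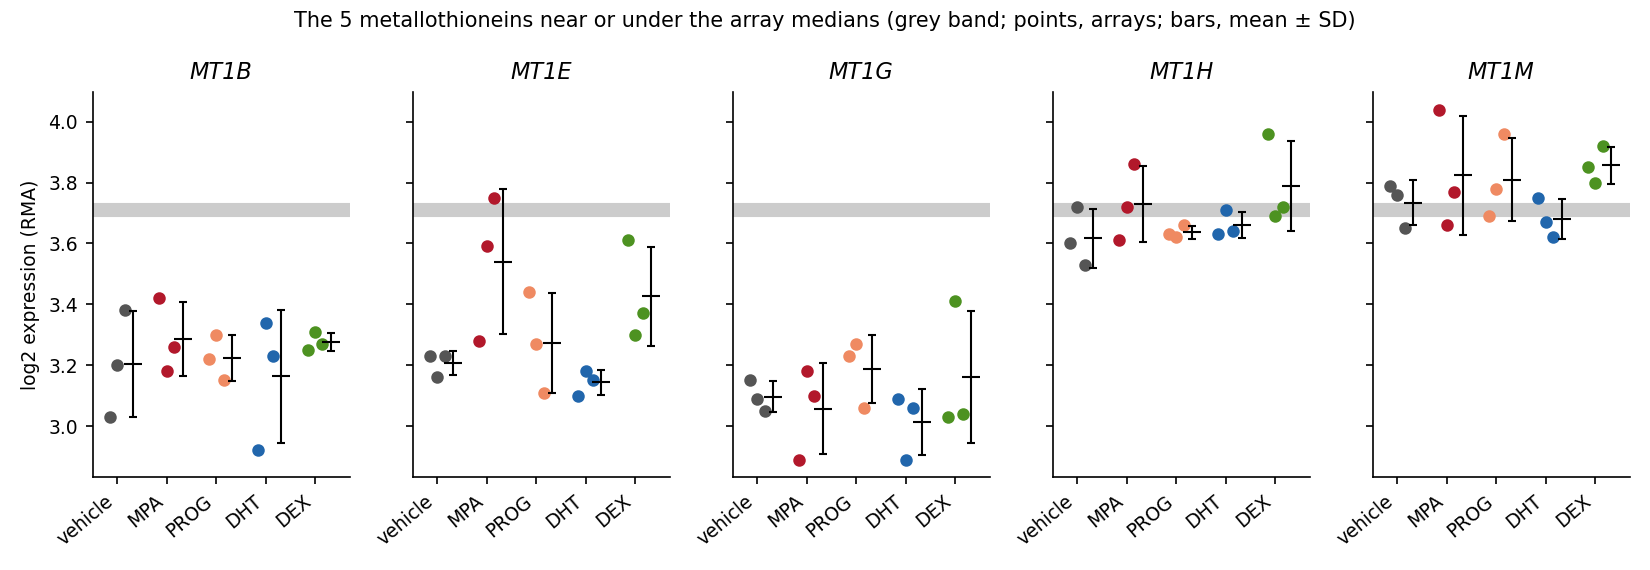
Log2 expression of MT1B, MT1E, MT1G, MT1H and MT1M on each of the 15 arrays by group. Points are arrays, black bars the mean ± SD of 3 arrays and the grey band the array medians from 3.69 to 3.73; MT1B and MT1G stay under the band, MT1H and MT1M straddle it, and MT1E reaches above it on 1 MPA array at 3.75.

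Of 13 other metallothionein genes and pseudogenes listed, 3 had a named probe set, MT1L, MT3 and MT4, and none was called against vehicle with any compound (adjusted p 0.593 to 0.967). The pseudogene MT1L (3.13 to 3.46) and MT3 (3.00 to 3.30) were under the array medians, and MT4 lay at 4.42 to 4.85. MTF1, the metal-sensing regulator, had a vehicle mean of 8.70 and differed from vehicle by 0.03 with MPA, 0.06 with PROG, 0.08 with DHT and 0.10 with DEX (each ± 0.042, adjusted p 0.403 to 0.807).

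Genes of metal handling and of the oxidative stress response were looked up next to the family. None of 24 zinc transporters, SLC30A1 among them, had a named probe set, so they were not analysed here. Of 4 copper genes measured out of 11 listed, STEAP4, a metalloreductase of iron and copper, rose with MPA from 5.48, 5.43 and 5.27 to 6.15, 6.22 and 6.25 (0.81 ± 0.069, adjusted p = 2.22e-06) and with PROG to 5.74, 5.78 and 5.57 (0.30 ± 0.069, adjusted p = 0.0284). The copper chaperone genes ATOX1, CCS and COX17 were not called with any compound. Of 6 oxidative stress genes measured out of 11, TXNRD1, thioredoxin reductase, fell with MPA from a vehicle range of 7.97 to 8.06 to 7.73, 7.80 and 7.68 (-0.27 ± 0.043, adjusted p = 9.52e-04) and with PROG to 7.82, 7.80 and 7.80 (-0.20 ± 0.043, adjusted p = 0.0185). HMOX1, heme oxygenase, which metals also induce, differed from vehicle by -0.02 to 0.05 with the 4 compounds (adjusted p 0.802 to 0.991).

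In all, 2 of these 11 genes, MTF1 included, were called with MPA, 2 with PROG and none with DHT or DEX. Of all named probe sets 5.93% were called with MPA, 2.82% with PROG, 0.889% with DHT and 1.11% with DEX. These lists too were chosen with earlier results known, so the counts are no test of them. Both MPA calls held with each array left out. The STEAP4 call with PROG ended without vehicle 2, vehicle 3, PROG 1 or PROG 2 (adjusted p 0.0629 to 0.144), and in a fit on the PROG and vehicle arrays alone (adjusted p = 0.154). The TXNRD1 call with PROG ended without vehicle 3, PROG 1, PROG 2 or PROG 3 (adjusted p 0.0530 to 0.0869), and in that same fit on the PROG and vehicle arrays (adjusted p = 0.0858). At an unadjusted p under 0.05 limma had 3 of the 11 with DHT (COX17, STEAP4 and OSGIN1) and 4 with DEX (MTF1, ATOX1, COX17 and STEAP4). The share of all probe sets at that unadjusted threshold is not given here, so these counts have no background beside them. OSGIN1, an oxidative stress response gene, was nearest the threshold with DHT (0.20 ± 0.045, adjusted p = 0.0552), and without DEX 2 the count with DHT was 1.

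In the gene table's order the cluster runs MT4, MT3, MT2A, MT1L, MT1E, MT1M, MT1B, MT1F, MT1G, MT1H and MT1X as far as these are measured, and the 5 nearest measured protein-coding genes were taken on each side. The nearest neighbours, BBS2 on the MT4 side and NUP93 on the MT1X side, were not called with any compound (adjusted p 0.700 to 0.943 and 0.434 to 0.939). No gene on the MT4 side was called with any compound. On the MT1X side the outer 2 of the 5, ARL2BP, which encodes a binding partner of the small GTPase ARL2, and PLLP, the gene of the membrane protein plasmolipin, rose with both progestins. Thus 2 of the 11 neighbour probe sets were called with MPA and with PROG, where 5.93% and 2.82% of all named probe sets were.

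PLLP read 4.28, 4.46 and 4.14 in the vehicle arrays, 5.55, 5.81 and 5.82 with MPA and 5.13, 5.30 and 5.21 with PROG, with no overlap among these groups. The difference was 1.43 ± 0.090 with MPA (adjusted p = 1.01e-07) and 0.92 ± 0.090 with PROG (adjusted p = 1.88e-05), and both calls held with each array left out. Its DHT arrays (4.25, 4.48 and 4.42) overlapped vehicle and its DEX arrays read 4.47, 4.56 and 4.57, with differences of 0.09 ± 0.090 (adjusted p = 0.819) and 0.24 ± 0.090 (adjusted p = 0.346). ARL2BP rose by 0.43 ± 0.052 with MPA (adjusted p = 7.87e-05) and by 0.26 ± 0.052 with PROG (adjusted p = 0.0115). The PROG call of ARL2BP ended without vehicle 1, vehicle 2, PROG 1 or PROG 2 (adjusted p 0.0555 to 0.0592), and in a fit on the PROG and vehicle arrays alone (adjusted p = 0.108). Between MT1F and ARL2BP in that order lie the measured genes MT1G, MT1H, MT1X, NUP93, CPNE2 and RSPRY1, none of which was called with either progestin.

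**Figure D5:**
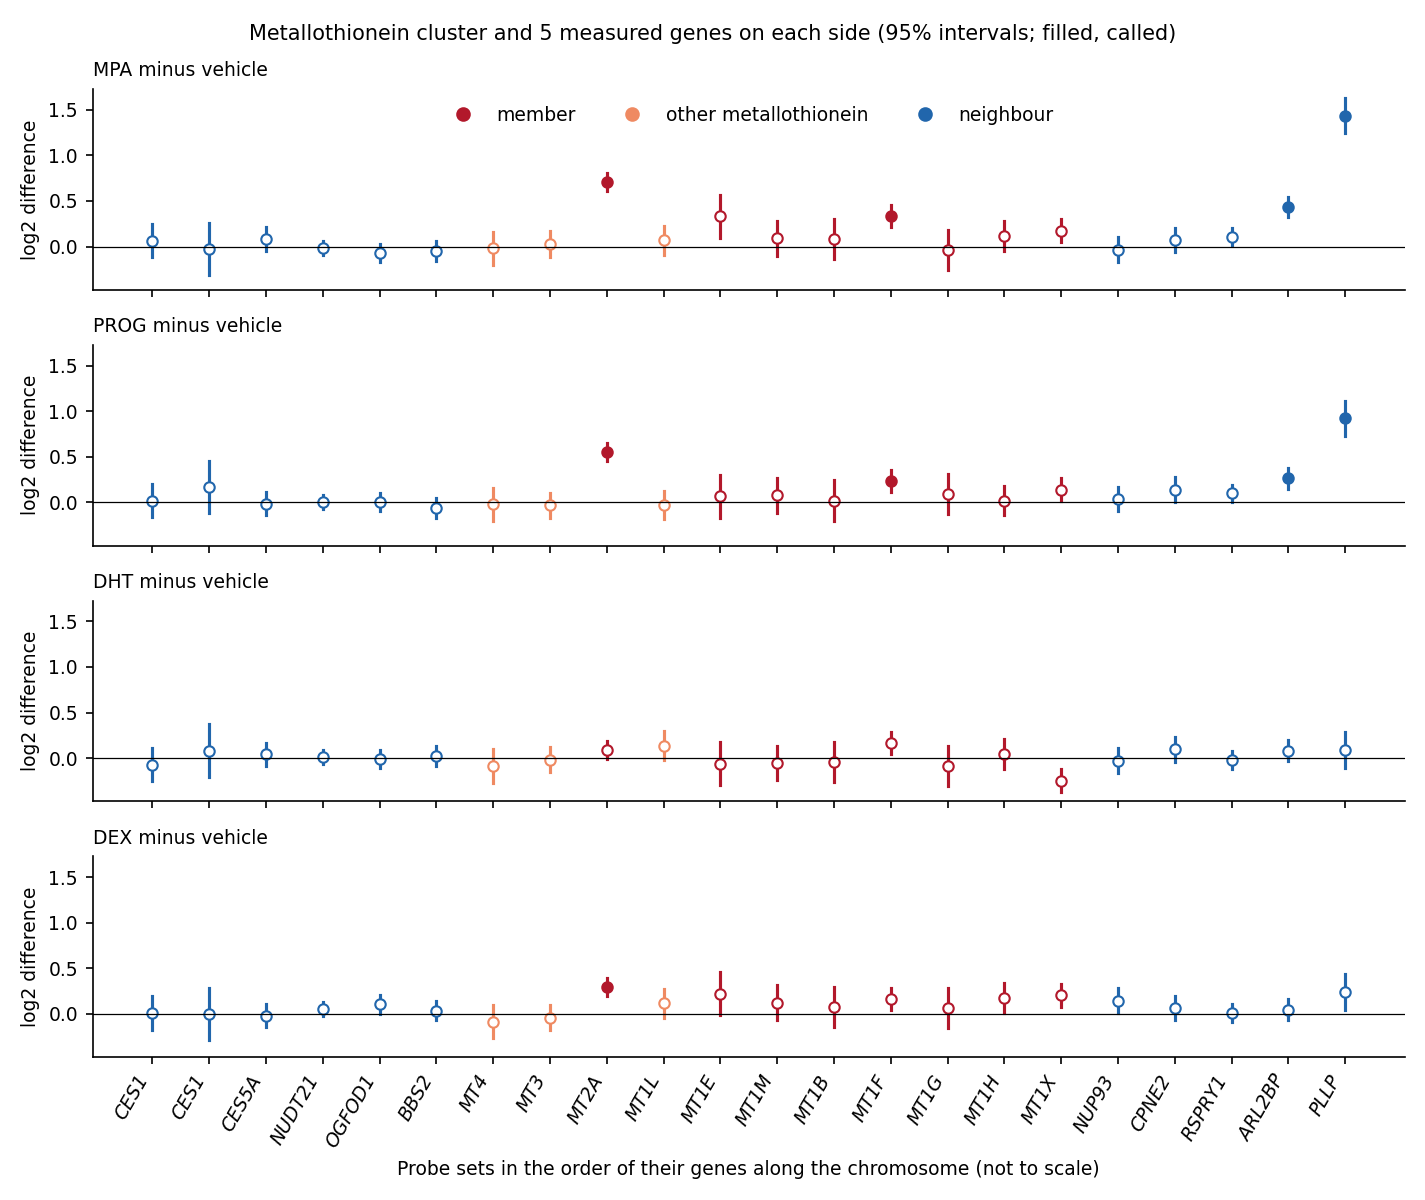
Log2 differences from vehicle with 95% intervals for the metallothionein cluster and 5 measured genes on each side, 1 panel per compound. The horizontal axis follows gene order and is not to scale, CES1 has 2 probe sets, and filled points are called; with MPA these are MT2A (0.70), MT1F (0.33), ARL2BP (0.43) and PLLP (1.43), and with DEX MT2A (0.30).

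Genes outside the family whose levels most resembled a member over the 15 arrays were sought among 9518 probe sets with a mean above the array medians. For MT2A they were S100P, a calcium-binding protein (r = 0.979), SYBU (0.976), the phosphatase gene MTMR4 (0.975), the transcription factor gene TFCP2L1 (0.973) and FOSL2, an AP-1 subunit (0.968). The S100P group means followed the MT2A order, at 6.32 with MPA, 6.13 with PROG, 5.72 with DEX, 5.54 with DHT and 5.42 with vehicle. S100P was picked for its likeness to MT2A on these same arrays, so the shared order is no separate result. MT1F was most like SLPI, a secreted protease inhibitor (0.926), VSTM2L (0.906), PEA15 (0.900), JUNB (0.895) and ARRDC1 (0.889).

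For MT1X the closest was ADORA2B, an adenosine receptor gene (r = 0.903), with means of 7.85 with DHT, 7.99 with vehicle, 8.02 with PROG, 8.06 with DEX and 8.09 with MPA. UIMC1 (0.850), CHST15 (0.835), CAPN8 (0.833) and RCAN1 (0.829) followed. All 5 had their lowest group mean with DHT, as MT1X did. They were picked for likeness to MT1X on these same arrays, so the shared low with DHT is no separate result. The correlations are descriptions over arrays that share 5 groups, and the members' 3 sets of 5 genes have no gene in common.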

How the data were processed

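RNA of ZR-75-1 cells, 3 arrays in each of 5 groups, was measured on 15 Affymetrix arrays. The deposited values are log2 expression per probe set, made by the authors with Partek and RMA, per the submitters' processing notes. The version of either tool, the background settings, any filter and the build were not given in the sources used here. They were used as deposited. Of 34878 probe sets, 14841 had 1 gene symbol in the platform annotation. The other 20037 did not and were left out of the main fit. Whether any of them carried several symbols was not counted. Groups came from the sample labels. limma 3.58.1 in R 4.3.3 fitted 5 group means over all 15 arrays (lmFit and eBayes, 10 residual degrees of freedom), with Benjamini-Hochberg adjustment over the 14841 probe sets in each of 10 comparisons and in the F test, and the scripts were tested on simulated data. Intervals are at 95%. Promoter sequences are from RefSeq (GRCh38.p14). The number of arrays limits the precision.

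The members and lists were chosen with earlier results of these data known. Named genes were every member, other family genes with a named probe set, up to 4 called genes of each metal-handling list with MTF1 and SLC30A1, the 5 nearest measured protein-coding genes on each side of the cluster, and the 5 genes most like MT2A, MT1F and MT1X. OSGIN1, the copper chaperone genes, HMOX1 and neighbours named for their place in the order stand beside those. Alternatives were a replicate block, each array left out, all probe sets, dim probe sets left out, quantile normalization, median centring, an intensity trend, array weights and fits on the groups compared alone.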

Additional observations from a re-analysis of the deposited data

How the results depend on the processing

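Of the family counts, those for MPA minus vehicle (2), MPA minus DHT (2), MPA minus PROG (0) and PROG minus DHT (2) moved by no more than 1.5 times under any alternative run. PROG minus vehicle had 1 call in place of 2 with the replicate block, with all probe sets, with quantile normalization and in a fit on the groups compared alone. DHT minus vehicle had 1 (MT1X) in place of 0 with dim probe sets left out and with an intensity trend, DHT minus DEX 2 in place of 1 under those same settings, and MPA minus DEX 2 in place of 1 with the trend. DEX minus vehicle and PROG minus DEX had 0 in place of 1 in fits on the groups compared alone. Metal-handling calls with PROG were 1 with the replicate block and 0 in the fit on the groups compared alone, in place of 2, and with DHT 1 in place of 0 with dim probe sets left out. With the trend, MT1X for MPA minus vehicle (adjusted p = 0.0491), MT1F for MPA minus DEX (0.0482) and MT1E for MPA minus DHT (0.0439) were also called. The cause of these changes was not tested. With 1 array left out, the counts ranged from 1 to 2 for PROG minus vehicle, 1 to 2 for DEX minus vehicle, 1 to 2 for DHT minus DEX, 0 to 1 for PROG minus DEX, 2 to 4 for the F test, 0 to 2 for metal-handling genes with PROG and 0 to 1 with DHT. No called difference of a member changed sign, while differences that were not called did so in 39 fits. Over 30 pairs of arrays with the same replicate number in different groups, deviations from the group means correlated at -0.054 to 0.067. For 60 pairs with other numbers the range was -0.088 to 0.066, and 4 of 15 arrays correlated best with their own number. No pairing by number was seen in these values. They cannot show whether equal numbers share a culture or a processing day, which the labels do not state. Under the replicate block the differences for PROG minus vehicle had an adjusted p of 0.0677 for MT1F and 0.0523 for STEAP4. Low signal limits MT1B, MT1E, MT1G, MT1H and MT1M.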
